A study of Homo sapiens with 24 samples.

Results

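The solvent controls of the TMG experiment were compared with each other across time: 3 libraries of HEK293T cells that had spent 6 h with DMSO against 3 libraries that had spent 2 h with it. They were chosen by their labels, and they are 6 of the 23 libraries used here. The labels list 24 samples in 8 groups, and 1 sample of OSMI-2 at 6 h was not analysed here. HEK293T is an established human embryonic kidney line, and the study sequenced its polyadenylated RNA after treatment with 10 µM OSMI-2, which blocks OGT, the enzyme that adds O-GlcNAc to proteins, or with 5 µM TMG (Thiamet-G), which blocks OGA, the enzyme that removes it and whose gene appears as MGEA5 in the tables. Each drug was tested at 2 h and at 6 h, and each drug and time had DMSO libraries of its own. None of the 6 libraries of this comparison had received either drug. Cells in all groups had been given new medium 3 h before DMSO was added, so the medium was 5 h old in the 2 h libraries and 9 h old in the 6 h libraries. Time with DMSO and age of the medium moved together and cannot be told apart, and the labels read here give no day of harvest. The labels do not say that replicates were separate cultures, so p-values measure the spread between these libraries.

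A solvent control is normally the reference for a drug, and its own change with time is divided out. Culture medium is itself an input. Cells draw amino acids, glucose, sterols and growth factors from it, and they read each supply through dedicated gene programmes: ATF4 target genes respond to a shortage of amino acids, SREBP2 target genes to a shortage of sterols, chaperone genes of the endoplasmic reticulum and of the cytosol to unfolded protein, and immediate early and ID genes to growth factors. Detained introns are a separate layer. They are introns left in otherwise spliced, polyadenylated transcripts that stay in the nucleus until they are spliced or destroyed.

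The 2 h libraries held 46.9 M to 56.4 M bin counts (M, mega) and the 6 h libraries 43 M to 48.4 M. Pairs of libraries within a group differed by more than counting error, with a chi-square over degrees of freedom of 6.07 to 24.2, and in each group library a stood farther from b and c than those did from each other. In the 6 h group library a also lay nearest to the 2 h group in several library-wide measures that are given beside the results. The markers of the line were present: of 13 listed genes 11 were tested, and their summed level was 1039 to 1071 CPM (counts scaled to one common library total, after TMM) at 2 h and 662 to 706 CPM at 6 h. Of the 11, 6 were lower, 1 higher and 4 did not pass, beside 29.6% lower and 16.3% higher over all genes tested. They ran from KRT8, a simple-epithelial keratin (log2 fold change −1.47), and VIM, vimentin (−0.98), to LIN28B, an RNA-binding protein (0.42). Of 8 fibroblast markers 2 were tested, with a summed level of 7.74 to 9.67 CPM at 2 h and 6.20 to 10.5 CPM at 6 h, and of 8 blood markers 1 was tested. Fewer cells of a type and less RNA per cell cannot be told apart in bulk RNA.

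Nearly as many genes passed the test as did not. Of 12294 genes tested, 5641 (45.9%) differed between 6 h and 2 h (quasi-likelihood test of edgeR with p adjusted by Benjamini-Hochberg, under 0.05), 2000 (16.3%) higher and 3641 (29.6%) lower at 6 h. The median log2 fold change was −0.07. Large changes were one-sided: among genes past the threshold, 29 were higher and 564 lower by at least 1 on the log2 scale, and both sets were of low abundance, with a median of 63.2 and 67.6 counts per library against 1303 over all genes tested. The split depended on scaling. It was 2000 to 3641 with TMM over genes and introns together, 2913 to 2918 with TMM over genes alone and 2685 to 3084 with library totals, so the sign of a small fold change is not fixed by these counts.

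Genes that were lower at 6 h were richer in G and C. Median transcript GC was 54.8% for genes that fell, 57.2% for those that fell by at least 1, 42.9% for genes that rose and 48.4% over all genes tested. Across 11428 genes the log2 fold change and GC had a Pearson r of −0.37, a description over genes that share the same 6 libraries. The slope of a library's log2 levels on GC (change per 10 points of GC, relative to the mean of all 23 libraries) was −0.50, −0.51 and −0.55 in the 2 h libraries a, b and c, and −0.60, −0.75 and −0.77 in the 6 h libraries. The ratio of counts in first to last exons was 0.323, 0.299 and 0.312 at 2 h, and 0.277, 0.233 and 0.236 at 6 h. In both measures every 6 h library lay below every 2 h library, with library a of the 6 h group nearest to them. The part of GC or of coverage along the transcript in the gene results was not tested, but with the GC trend removed from the counts 6171 genes passed, 2870 higher and 3301 lower, and 4648 of the 5641 called genes were called again in the same direction, with 6 in the opposite one.

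**Figure D1:**
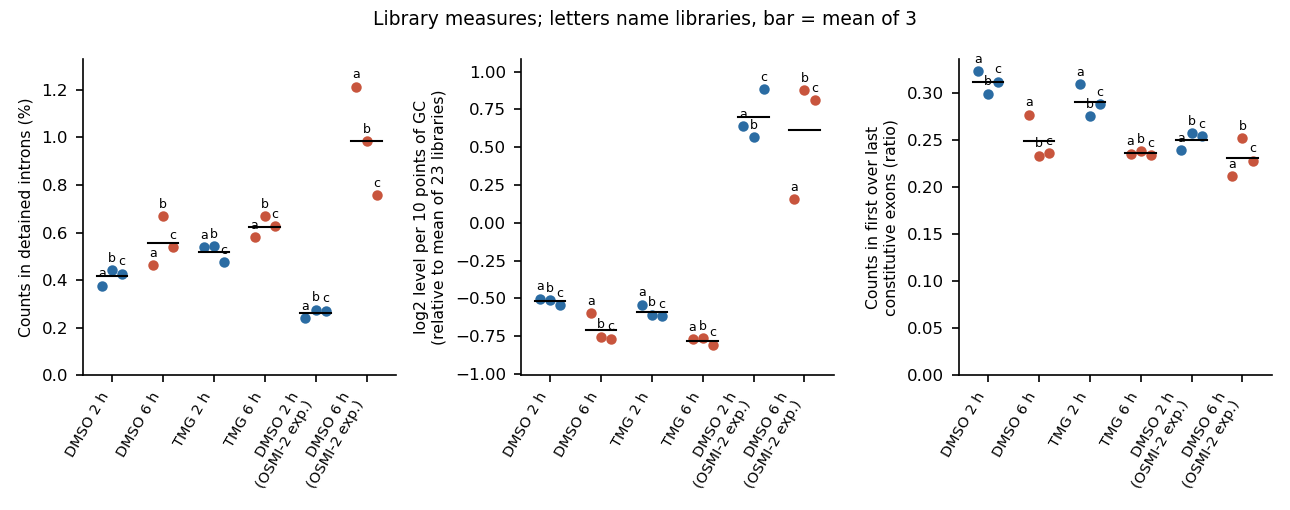
Library-wide measures in the DMSO and TMG libraries, with 1 point per library and a bar at the group mean: the percent of counts in detained introns, the slope of log2 level on transcript GC, and the ratio of first-exon to last-exon counts. The DMSO 6 h libraries of the TMG experiment lie above the 2 h libraries in the first measure and below them in the others, and library a of the 6 h group is the nearest to them in all 3.

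The largest rise was that of CHAC1, which degrades glutathione and is a target of ATF4. It stood at 0.508, 0.642 and 0.883 CPM in the 2 h libraries and at 3.84, 3.01 and 2.95 CPM in the 6 h libraries. Its log2 fold change was 2.27 ± 0.21 (SE, n = 3 per group, edgeR adjusted p = 5.73e-09), and the groups did not overlap. SLC7A11, the light chain of the cystine and glutamate exchanger xCT, stood at 10.1, 10.4 and 9.73 CPM at 2 h and at 31.6, 37.6 and 39.2 CPM at 6 h (log2 fold change 1.84 ± 0.09, edgeR adjusted p = 1.73e-13). SLC1A3, a glutamate and aspartate importer, went from 32.9, 31.9 and 28.6 CPM to 79.4, 84.5 and 81.6 CPM (1.39 ± 0.08, edgeR adjusted p = 1.13e-12). In both carriers the lowest 6 h library was far above the highest 2 h library. VLDLR, a lipoprotein receptor, rose from 3.49, 3.73 and 2.54 CPM to 7.38, 8.49 and 8.21 CPM, and STC2, a secreted glycoprotein induced by stress, from 40.1, 47.0 and 42.3 CPM to 90.6, 89.2 and 87.1 CPM. The others among the 10 largest rises were the histone gene HIST2H4A (1.31, a family with near-identical copies), the splicing regulator MBNL2 (1.20), the transcription factor MEF2C (1.13), the centriole protein SPICE1 (1.05) and the zinc finger gene ZNF276 (1.04).

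The 10 largest falls ran from −3.02 to −2.42 on the log2 scale. GRIK3, a kainate receptor subunit, stood at 5.39, 6.19 and 5.10 CPM at 2 h and at 0.650, 0.747 and 0.658 CPM at 6 h, a log2 fold change of −3.02 ± 0.17 (edgeR adjusted p = 1.5e-12). EMILIN2, an extracellular matrix glycoprotein, went from 15.8, 13.8 and 15.7 CPM to 2.05, 2.15 and 1.59 CPM (−2.96 ± 0.13, edgeR adjusted p = 1.67e-14). In both genes the highest 6 h library was far below the lowest 2 h library. SLC7A3, a carrier of arginine and lysine, was the most abundant of the 10 and went from 37.2, 35.9 and 31.1 CPM to 5.24, 5.72 and 5.42 CPM (−2.67 ± 0.10, edgeR adjusted p = 1.19e-15). The remaining 7 were SRRM3, a neuronal splicing factor (−2.78), ACTL6B, a neuronal chromatin remodelling subunit (−2.65), SYNDIG1, a synapse protein (−2.60), TMEM132E (−2.58), FSTL4 (−2.51), the secretory granule protein CHGB (−2.47) and the peptide hormone gene CALCB (−2.42). None of the 20 genes had overlapping groups, which the rule for naming them required.

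**Figure D2:**
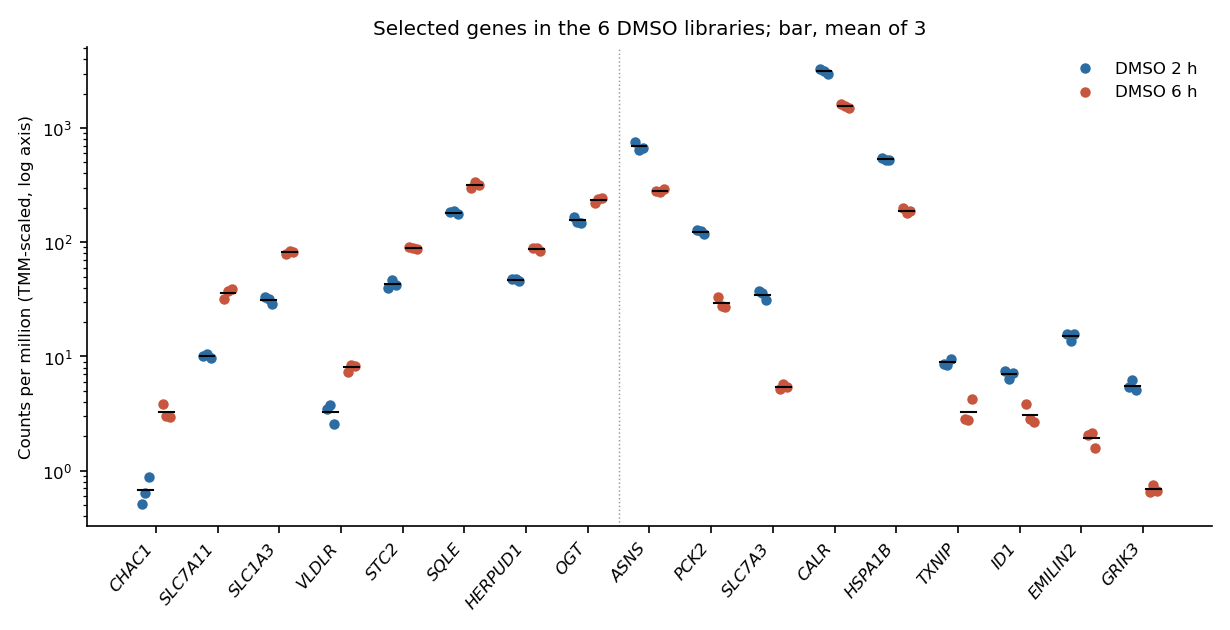
Level of 17 genes in each DMSO library of the TMG experiment in CPM on a log axis, with 1 point per library and the 2 h and 6 h groups in different colours. SLC7A11 rises from 9.73 to 10.4 CPM to 31.6 to 39.2 CPM, and SLC7A3 falls from 31.1 to 37.2 CPM to 5.24 to 5.72 CPM.

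The list of ATF4 target genes divided. Of 24 members tested, 10 were higher, 10 lower and 4 did not pass, and their median, −0.07, was the same as that of all genes. Among all genes 16.3% were higher and 29.6% lower. ATF4 itself, the transcription factor translated when amino acids run short, rose by 0.64 (387, 330 and 347 CPM to 610, 492 and 562 CPM, edgeR adjusted p = 8.06e-07). With it rose the regulators DDIT3 (0.74) and SESN2 (0.79, an inhibitor of mTORC1 signalling), the mTORC1 inhibitor DDIT4 (1.01) and the arginine importer SLC7A1 (0.71), beside CHAC1, SLC7A11, VLDLR and STC2. Among the members that fell were enzymes. ASNS, asparagine synthetase, stood at 762, 648 and 674 CPM at 2 h and at 283, 276 and 292 CPM at 6 h, a log2 fold change of −1.29 ± 0.07 (edgeR adjusted p = 1.69e-12). PCK2, mitochondrial phosphoenolpyruvate carboxykinase, went from 129, 124 and 118 CPM to 33.4, 27.7 and 27.0 CPM (−2.08 ± 0.08, edgeR adjusted p = 6.3e-15). The groups did not overlap for either enzyme. ALDH1L2 (−1.28), SHMT2 (−0.50) and the serine synthesis enzymes PHGDH (−0.45) and PSAT1 (−0.32) also fell, as did the transcription regulators NUPR1 (−2.12), ATF5 (−0.82), CEBPG (−0.77) and TRIB3 (−0.54). MTHFD2, another mitochondrial folate enzyme, rose by 0.25.

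CHAC1 and ASNS moved in opposite directions, and each carries the same response element letters upstream. The element TGATGNAA (CARE, for C/EBP-ATF response element, searched on both strands) was found in the 250 bases before the start of 4 members: CHAC1, which rose, ASNS and CEBPG, which fell, and JDP2 (−0.35), which did not pass. Over all 35116 RefSeq promoters of the same length 3.14% hold it, and over the 31 promoters of the 19 members that could be matched by symbol 12.9% do. The upstream sequences of CHAC1, chr15:40953221-40953470 (plus strand), and ASNS, chr7:97872409-97872658 (minus strand), are shown 5′ to 3′ on the strand of the gene from RefSeq, build GRCh38.p14, with the letters of the element in capitals. In CHAC1 the element lies on the opposite strand, and its reverse complement is printed. ASNS has 2 promoters, and only the one shown holds the element.
CHAC1: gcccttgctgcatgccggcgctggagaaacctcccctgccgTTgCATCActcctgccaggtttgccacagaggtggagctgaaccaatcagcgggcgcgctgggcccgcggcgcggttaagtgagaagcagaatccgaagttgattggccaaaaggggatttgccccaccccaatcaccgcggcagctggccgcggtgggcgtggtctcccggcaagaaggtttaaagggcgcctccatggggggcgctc
ASNS: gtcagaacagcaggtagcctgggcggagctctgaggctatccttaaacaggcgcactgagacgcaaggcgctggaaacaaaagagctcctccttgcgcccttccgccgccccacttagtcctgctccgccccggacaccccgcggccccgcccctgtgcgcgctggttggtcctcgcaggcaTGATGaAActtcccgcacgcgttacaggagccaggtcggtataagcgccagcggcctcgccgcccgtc

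Sterol genes rose as a group by smaller steps. Of 22 SREBP2 target genes tested, 18 were higher, 1 lower and 3 did not pass, beside 16.3% higher and 29.6% lower over all genes. Their median log2 fold change was 0.49 against −0.07 over all genes. With alternative scalings, filters and left-out libraries 15 to 20 of the 22 were higher. SQLE, squalene epoxidase, stood at 182, 187 and 177 CPM at 2 h and at 298, 340 and 319 CPM at 6 h (log2 fold change 0.81 ± 0.07, edgeR adjusted p = 3.24e-09). Every 6 h library was above every 2 h library. The rises ran along the pathway from acetyl-CoA to cholesterol: ACAT2 (0.79), HMGCS1 (0.63), MVK (0.73), MVD (0.54), IDI1 (0.57), FDFT1 (0.70), MSMO1 (0.58), HSD17B7 (0.56) and DHCR7 (0.42). Regulators and carriers that rose were INSIG1 (0.44), STARD4 (0.65) and SREBF2 (0.18, edgeR adjusted p = 0.0419), the gene of SREBP2. The call of SREBF2 was lost in 5 of the 6 cases with 1 library left out, all but 6 h library c. PMVK, phosphomevalonate kinase, fell by 0.58.

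The upstream 250 bases of the sterol genes often hold CCAAT, the box bound by NF-Y, on either strand: 17 of the 21 promoters of the 16 members that could be matched (81%), beside 32% of all promoters of that length. The share was 89.5% (17 of 19 promoters) in the endoplasmic reticulum list described next, most of whose genes fell. HMGCS1, the synthase at the entry to the pathway, has 2 promoters, and only the one shown holds the box. There it has it at 2 places, both on the opposite strand (chr5:43313413-43313662 (minus strand), RefSeq GRCh38.p14), printed as ATTGG in capitals.
HMGCS1: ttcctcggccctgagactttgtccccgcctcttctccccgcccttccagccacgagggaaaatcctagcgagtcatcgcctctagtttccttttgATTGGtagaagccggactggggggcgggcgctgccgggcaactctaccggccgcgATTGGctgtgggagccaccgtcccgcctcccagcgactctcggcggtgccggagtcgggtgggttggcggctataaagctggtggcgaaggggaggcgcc

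Chaperone genes of the endoplasmic reticulum fell. Of 16 tested, 10 fell, 2 rose and 4 did not pass, beside 29.6% lower and 16.3% higher over all genes. The median of the list was −0.62 on the log2 scale. CALR, calreticulin, one of the most abundant transcripts of the list, stood at 3299.9, 3185 and 2943 CPM at 2 h and at 1629, 1571 and 1491 CPM at 6 h, so that every 6 h library was below every 2 h library (log2 fold change −1.01 ± 0.07, edgeR adjusted p = 1.32e-10). CRELD2 (−1.05), the disulfide isomerase PDIA4 (−0.89), the secreted factor MANF (−0.89), SDF2L1 (−0.80), the chaperones HSP90B1 (−0.79) and HYOU1 (−0.79), PDIA6 (−0.62) and DNAJB11 (−0.62) fell as well. HSPA5 (BiP), the chaperone that restrains the sensors of unfolded protein, fell less, from 993, 1002 and 921 CPM to 757, 796 and 765 CPM (−0.33 ± 0.07, edgeR adjusted p = 0.000404). XBP1, whose spliced form drives many of these genes, did not pass (−0.10, edgeR adjusted p = 0.274), and splice forms were not measured. The members that rose were HERPUD1, which acts in the disposal of misfolded protein, from 47.4, 47.5 and 46.1 CPM to 88.7, 88.4 and 83.3 CPM (0.89 ± 0.07, edgeR adjusted p = 9.81e-10), and EDEM1 (0.21), whose call was lost in 5 of the 6 cases with 1 library left out, all but 6 h library a.

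The endoplasmic reticulum stress element (ERSE: CCAAT, 9 further bases of any kind, then CCACG, searched on both strands, and holding the CCAAT box within it) is rare: 26 of 35116 promoters (0.074%) have it in the 250 bases upstream, against 6 of the 19 promoters of the 16 listed genes. The 6 are HSPA5, CALR, CRELD2, HSP90B1 and PDIA6, all of which fell, and XBP1, which did not pass. These matches describe letters, not binding. The upstream sequences of CALR, chr19:12938359-12938608 (plus strand), CRELD2, chr22:49918384-49918633 (plus strand), and HSPA5, chr9:125241344-125241593 (minus strand), from RefSeq GRCh38.p14 show the fixed letters of the element in capitals. In CALR and CRELD2 it is on the opposite strand and reads CGTGG before ATTGG, and in HSPA5 it is on the printed strand.
CALR: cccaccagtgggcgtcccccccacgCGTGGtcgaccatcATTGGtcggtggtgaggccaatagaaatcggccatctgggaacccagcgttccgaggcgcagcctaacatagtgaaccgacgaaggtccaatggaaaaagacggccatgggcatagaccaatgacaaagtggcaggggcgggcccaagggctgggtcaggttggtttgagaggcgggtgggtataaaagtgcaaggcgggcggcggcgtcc
CRELD2: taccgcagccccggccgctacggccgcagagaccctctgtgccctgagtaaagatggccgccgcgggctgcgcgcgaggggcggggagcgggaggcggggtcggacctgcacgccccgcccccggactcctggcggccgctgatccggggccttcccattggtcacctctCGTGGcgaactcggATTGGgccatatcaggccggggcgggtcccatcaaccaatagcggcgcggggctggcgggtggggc
HSPA5: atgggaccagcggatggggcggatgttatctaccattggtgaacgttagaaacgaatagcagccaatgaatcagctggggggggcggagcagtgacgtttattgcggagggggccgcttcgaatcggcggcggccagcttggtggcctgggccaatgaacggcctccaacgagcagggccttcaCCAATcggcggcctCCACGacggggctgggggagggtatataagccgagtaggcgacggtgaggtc

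Heat shock genes moved both ways. Of 14 tested, 8 fell and 4 rose, beside 29.6% lower and 16.3% higher over all genes. The median of the list was −0.24 on the log2 scale. HSPA1B, an inducible HSP70, stood at 550.5, 527 and 522 CPM at 2 h and at 199, 180.1 and 187 CPM at 6 h (−1.50 ± 0.07, edgeR adjusted p = 4.99e-14), with every 6 h library far below every 2 h library. DNAJB1, its HSP40 partner, fell by 1.39, BAG3 by 1.01, HSPB1 by 0.66, the constitutive HSP70 gene HSPA8 by 0.42 and DNAJA1 by 0.27. HSPA1A has a near-identical copy in HSPA1B and few counts of its own, 17 to 19 per library at 2 h and 4 or 5 at 6 h, so the split of counts between them is uncertain. HSP90AA1 (0.30), HSPD1 (0.25), CHORDC1 (0.23) and HSPA4L (0.20) rose. With 1 library left out the call of HSPA4L was lost in 5 of 6 cases, that of CHORDC1 in 3 and that of HSPD1 in 1. In a fit over all 23 libraries 4 of the 14 were lower and 0 higher, and without 6 h library b or c, or without 2 h library a or b, 2 were higher. The letters GAANNTTC, the core of a heat shock element and their own reverse complement, are in 10 of the 22 promoters of these genes (45.5%) and in 5.78% of all promoters. Among them are genes that fell and genes that rose, HSP90AA1, HSPD1 and CHORDC1 included. HSPA1B, chr6:31827488-31827737 (plus strand), and DNAJB1, chr19:14518398-14518647 (minus strand), RefSeq GRCh38.p14, are shown with the core in capitals. DNAJB1 has 3 promoters, and only the one shown holds the core.
HSPA1B: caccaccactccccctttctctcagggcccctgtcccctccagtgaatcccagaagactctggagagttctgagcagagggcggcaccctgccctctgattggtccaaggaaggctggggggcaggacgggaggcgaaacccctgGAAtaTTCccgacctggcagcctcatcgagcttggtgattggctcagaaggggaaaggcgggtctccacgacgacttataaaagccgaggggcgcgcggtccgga
DNAJB1: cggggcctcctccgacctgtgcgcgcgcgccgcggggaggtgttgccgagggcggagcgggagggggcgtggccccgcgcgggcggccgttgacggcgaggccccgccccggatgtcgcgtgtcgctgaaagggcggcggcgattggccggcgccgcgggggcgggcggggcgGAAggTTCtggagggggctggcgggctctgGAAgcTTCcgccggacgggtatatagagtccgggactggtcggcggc

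**Figure D3:**
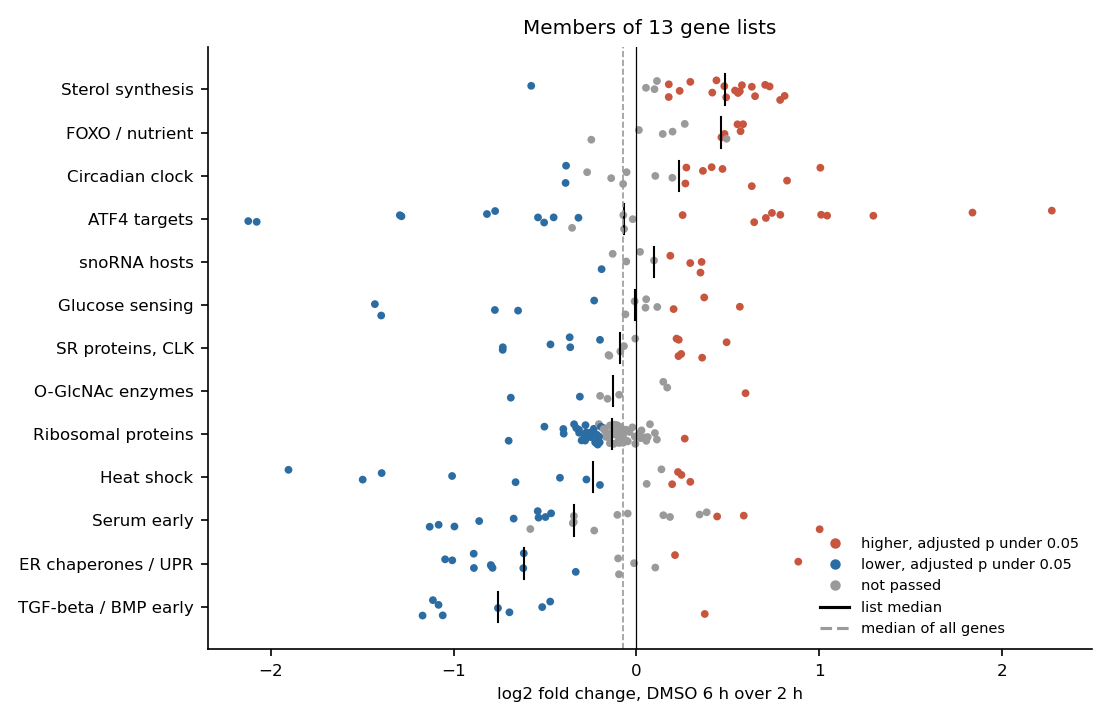
Log2 fold change, DMSO 6 h against 2 h, of each tested member of 13 gene lists, with 1 dot per gene, coloured by whether it passed the threshold higher, lower or not at all, and a tick at each list's median. The dashed line is the median of all genes tested (−0.07). The sterol list lies mostly above the line with 18 of 22 higher, and the endoplasmic reticulum list mostly below it with 10 of 16 lower.

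Early targets of BMP signalling were mostly lower at 6 h. Of 9 early targets of TGF-beta and BMP signalling, 8 were lower and 1 higher (median −0.76). ID1, an inhibitor of differentiation that BMP signals induce, stood at 7.42, 6.37 and 7.23 CPM at 2 h and at 3.82, 2.81 and 2.68 CPM at 6 h, without overlap (−1.17 ± 0.14, edgeR adjusted p = 3.64e-07). ID3 (−1.11), ID4 (−1.08), ID2 (−0.69) and the inhibitory SMAD genes SMAD6 (−1.06) and SMAD7 (−0.76) fell too, and HES1, a Notch target, rose by 0.37. Among 23 serum-induced early genes 9 were lower and 3 higher, beside 29.6% lower and 16.3% higher over all genes, so this list stood near the background. The MAP kinase phosphatases DUSP2 (−1.13) and DUSP5 (−1.08) and the factors KLF10 (−1.0), FOSB (−0.86) and FOS (−0.67, edgeR adjusted p = 0.00965) fell, while ATF3 (1.0), which is also a stress gene, KLF6 (0.59) and NR4A2 (0.44) rose. FOS did not pass without 2 h library b. The call of NR4A2 was lost in 4 of the 6 cases with 1 library left out. JUN (0.35, edgeR adjusted p = 0.0523, and 0.0484 with the column letter as a block) and MYC (0.18, edgeR adjusted p = 0.125) did not pass, and EGR1 had 3 to 12 counts per library and was not tested. The YAP targets CTGF (−0.72), CYR61 (−0.65) and LATS2 (−0.44) fell, 3 of 5 tested. With 1 library left out the call of CTGF was lost in 3 of 6 cases (without 2 h library b, 6 h library b or 6 h library c) and that of LATS2 in 2 (without 2 h library c or 6 h library c).

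Sensors of glucose and of nutrients changed in several directions. TXNIP, an arrestin that limits glucose uptake and is induced by glucose, stood at 8.65, 8.49 and 9.47 CPM at 2 h and at 2.83, 2.79 and 4.27 CPM at 6 h (−1.43 ± 0.14, edgeR adjusted p = 1.89e-08), and its paralog ARRDC4 fell by 1.40. HK2 (hexokinase 2, 0.57) and the glucose carrier SLC2A1 (0.37) rose. Over the list of 13, 3 were higher and 5 lower. The background for each list count here is 16.3% of all genes higher and 29.6% lower, and this list stood near it. Of 11 FOXO and nutrient targets 5 were higher and 0 lower, among them SESN3 (0.58), KLHL24 (0.57), the mTORC2 subunit RICTOR (0.55), BCL6 (0.48) and SESN1 (0.46), with a list median of 0.46. Of 17 hypoxia targets 6 were higher and 5 lower (3 and 0 in a fit over all 23 libraries), with ANKRD37 at 0.89 and VEGFA at 0.49. HMOX1, haem oxygenase 1, went from 14.4, 13.6 and 14.7 CPM to 7.69, 5.96 and 7.08 CPM (−1.04 ± 0.11, edgeR adjusted p = 3.58e-08), whereas other targets of NRF2, GCLC (0.34) and GCLM (0.30), rose, and that list had 3 of 9 in each direction.

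Clock genes were more often higher than lower in these 6 libraries. ARNTL (BMAL1), an activator of the circadian clock, rose from 4.42, 4.35 and 5.08 CPM to 9.43, 8.53 and 9.83 CPM (1.01 ± 0.11, edgeR adjusted p = 1.99e-07), NR1D1 by 0.82 and BHLHE41 by 0.63, and 8 of 16 clock genes were higher and 2 lower. That count was 3 higher in a fit over all 23 libraries and 4 to 7 higher with 1 library left out. In the TMG-treated cells 6 of 16 were higher and 5 lower, and in the OSMI-2 experiment's DMSO controls 0 of 15 passed in either direction. In the list of genes of G1 and S phase 1 of 17 was higher and 5 lower, and in the list of G2 and M phase 6 of 18 were higher and 4 lower, from CENPF (0.66) to UBE2C (−0.44). Over the alternatives the G1 and S list ranged from 0 to 6 higher and from 0 to 7 lower. CCNB1 (−0.03, edgeR adjusted p = 0.806) and CCNE2 (0.07, edgeR adjusted p = 0.517) did not pass, and the sign of each turned with the scaling or the GC correction. Ribosomal protein genes were 28 lower and 1 higher of 78, with a median of −0.14, but 47 were lower without 6 h library a, 10 without 6 h library c and 1 in a fit over all 23 libraries. With GC and length trends removed 16 were higher and 15 lower. Their summed share of counts was 12.4% to 13.3% at 2 h and 11.3% to 12.4% at 6 h. Of 9 snoRNA host and decay-sensitive transcripts 4 were higher, with GAS5 at 0.36, and 1 was lower. Of 8 replication histone genes, which have near-identical copies, 2 were higher and 1 lower. Each list count here stands beside 16.3% of all genes higher and 29.6% lower, and several lie near those shares.

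The O-GlcNAc enzymes that the drugs of the study address were also followed in these cells, which received only DMSO. OGT, the transferase, stood at 167, 152 and 148 CPM at 2 h and at 220.5, 241 and 245 CPM at 6 h, without overlap (0.60 ± 0.07, edgeR adjusted p = 4.77e-07). MGEA5, the hydrolase, went from 133, 136 and 145 CPM to 146, 157 and 164 CPM, a log2 fold change of 0.17 that did not pass (edgeR adjusted p = 0.0539), although every 6 h library was above every 2 h library, and that passed with the column letter as a block (edgeR adjusted p = 0.00934). Of the enzymes that make the sugar donor, GFPT2 (−0.69) and PGM3 (−0.31) fell, and GFPT1 (−0.09), UAP1 (−0.16), GNPNAT1 (0.15) and NAGK (−0.20) did not pass. With the block UAP1, GNPNAT1 and NAGK passed (edgeR adjusted p = 0.0211, 0.0305 and 0.0199). Among 17 SR proteins and CLK kinases, regulators of splicing, 6 were higher and 6 lower, beside 16.3% and 29.6% of all genes. SRSF2 (−0.73), CLK3 (−0.73) and SRSF3 (−0.47) fell, TRA2A rose by 0.49, and CLK1 was at −0.09 (edgeR adjusted p = 0.374).

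Detained introns were more abundant at 6 h. They held 0.377%, 0.443% and 0.427% of counts in the 2 h libraries a, b and c and 0.462%, 0.669% and 0.538% in the 6 h libraries, which gives 0.416% ± 0.034 and 0.556% ± 0.105 (SD, n = 3). The groups did not overlap, and the exact two-sided permutation test gave p = 0.1, the smallest that 3 against 3 allows. Without 6 h library b the difference of the means was 0.0839 percentage points in place of 0.14. Of 4095 introns tested one by one, 860 (21%) were higher and 37 (0.904%) lower (edgeR quasi-likelihood, adjusted p under 0.05), with a median log2 fold change of 0.41. When the scaling was taken from detained introns alone, which sets their median to 0, 120 were higher and 196 lower, so the calls rest on the level of introns relative to genes. The count of introns higher and lower together was 1480 without 6 h library a and 353 without 2 h library a, against 897 with all 6.

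Introns rose in genes that rose, in genes that fell and in genes that did not pass. The 860 lay in 750 genes, and the gene was higher for 290 of the introns, lower for 119 and not past the threshold for 451. The shares over all genes, 16.3% higher and 29.6% lower, include genes without a detained intron. They are therefore not the background of this split, which was not measured. Across 4095 introns the log2 fold changes of intron and gene had a Pearson r of 0.30, a description over introns that share the same 6 libraries. Relative to the gene (log2 of intron over gene counts, limma, adjusted p under 0.05), 603 of 4077 introns (14.8%) were higher and 24 (0.589%) lower, and for 298 of those 603 the gene, the denominator of this ratio, was itself lower. Longer introns were higher more often: 12.2% of 665 introns under 500 bases, 19.1% of 1165 introns from 500 to under 1500 bases and 24.6% of 2265 longer ones, at median counts of 32.8, 33.8 and 32.7, which is a description and was not tested.

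Named introns show how intron and gene can part. An intron bin of ASNS at chr7:97488268-97488524 (hg19, minus strand, 257 bases), the gene that fell by 1.29, had 33, 30 and 27 counts at 2 h and 71, 113 and 87 counts at 6 h (log2 fold change 1.71 ± 0.26, edgeR adjusted p = 1.17e-07). Its counts were 0.0916%, 0.0825% and 0.0862% of the counts of the gene at 2 h and 0.526%, 0.901% and 0.677% at 6 h, and this was the largest rise relative to a gene (2.95 ± 0.31, limma adjusted p = 2.54e-06). PDIA4, which fell by 0.89, had an intron at chr7:148703149-148705250 (hg19, minus strand) that rose by 0.99 and by 1.89 relative to the gene. The largest rise in counts was in an intron of AARS, alanyl-tRNA synthetase, at chr16:70287285-70287616 (hg19, minus strand, 332 bases), with 33, 40 and 32 counts at 2 h and 325, 76 and 263 counts at 6 h (2.78 ± 0.25, edgeR adjusted p = 2.14e-19). Library b of the 6 h group was far below a and c there, although still above the 2 h libraries. Introns of MCM5 (1.69), AGPAT4 (1.59), ARAP1 (1.58) and INTS8 (1.54) followed in size.

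Few introns fell. The largest fall was in an intron of the receptor ROR1, with 67, 83 and 73 counts at 2 h and 26, 28 and 26 counts at 6 h (−1.35 ± 0.27, edgeR adjusted p = 0.000137), and it also fell relative to its gene (−0.95). In EBF4 (−1.19) and C1S (−0.77) the intron fell with the gene (−1.26 and −0.99) and its relative value did not pass. In PHIP (−1.31 relative to the gene) and DENND5A (−1.07) the intron fell while the gene was higher (0.49) or did not pass (0.03). The 2 detained introns of OGT fell relative to the gene: the one at chrX:70764486-70766193 (hg19, plus strand) held 7.84%, 9.52% and 8.34% of the counts of the gene at 2 h and 3.56%, 5.25% and 4.91% at 6 h (−0.92 ± 0.24, limma adjusted p = 0.0122), and the one at chrX:70766347-70767756 also had −0.92 (limma adjusted p = 0.00967). On the scale of all counts each was at −0.30 or −0.31 and did not pass. For MGEA5 one intron rose by 0.77 (edgeR adjusted p = 0.0309), a call that was lost in 5 of the 6 cases with 1 library left out, and the other was at −0.30 (edgeR adjusted p = 0.281).

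**Figure D4:**
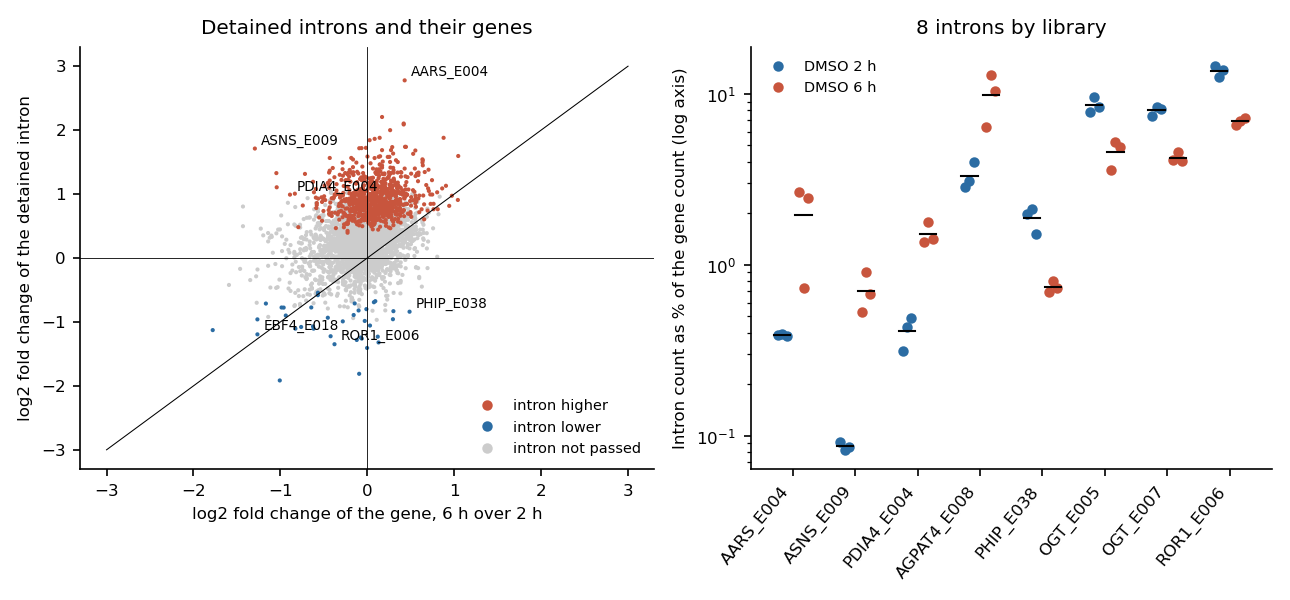
Left, log2 fold change (DMSO 6 h against 2 h) of each detained intron tested against that of its gene. Right, counts of 8 introns as a percent of the counts of their gene in each DMSO library of the TMG experiment on a log axis, with 2 h and 6 h in different colours. Most introns lie above 0, and the ASNS intron goes from under 0.1% to over 0.5% while the OGT introns go down.

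The same interval was measured in the TMG-treated cells of this experiment, in libraries that share none with the DMSO groups. There 2845 genes (23.2%) were higher and 4332 (35.3%) lower at 6 h than at 2 h, and 990 of 4245 introns (23.3%) were higher. Of 1998 genes higher in DMSO and tested in both, 1719 (86.0%) were higher with TMG, which is 60.5% of the genes higher with TMG, and of 3622 lower, 3149 (86.9%) were lower, 72.9% of those lower with TMG. CHAC1 (2.27 in DMSO, 2.51 with TMG), SLC7A11 (1.84, 1.96), SLC7A3 (−2.67, −2.41), PCK2 (−2.08, −1.97), SQLE (0.81, 0.69), HSPA1B (−1.50, −1.40) and TXNIP (−1.43, −1.37) had like values. Over 12217 genes the Pearson r of the log2 fold changes was 0.87, a description. The interaction test of time and treatment over 12 libraries found 3 of 12399 genes (0.0242%) whose time effect differed, against 1034 at an unadjusted p under 0.05, and 69 when 6 h library a of DMSO was left out. The 3 were MGEA5 (0.17 in DMSO and 0.76 with TMG, edgeR adjusted p = 0.000487), ZFR (−0.17 and 0.27) and ANKRD26 (0.80 and 0.08). When 1 library was left out the call of ANKRD26 was lost in 10 of 12 cases, that of ZFR in 2 and that of MGEA5 in none. Of introns, 3 of 4388 (0.0684%) differed: introns of MGEA5 (−0.30 in DMSO and 0.82 with TMG), IMMT (1.01 and −1.34) and ANKRD17 (−0.65 and 2.06, named after its values were seen). The counts of the ANKRD17 intron in DMSO were 19, 106 and 13 at 2 h and 18, 36 and 23 at 6 h, so library b of 2 h stood apart, and with 1 library left out 0 to 7 introns passed. A test that misses the threshold does not show that the other genes changed alike. The GC slopes of the TMG libraries were −0.54 to −0.62 at 2 h and −0.76 to −0.81 at 6 h, so they moved as those of DMSO did.

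The DMSO controls of the OSMI-2 experiment had the same medium change and times by their labels, and they changed differently over the same hours. Which samples had RNA taken with Trizol and which with a column kit is not stated, so equal handling is not established. The experiments differed already at 2 h: ribosomal protein genes held 18.8% to 20.8% of counts in those controls and 12.4% to 13.3% in the TMG experiment's controls. There 567 genes (4.59%) were higher and 1722 (14%) lower, and 3958 of 4472 introns (88.5%) were higher. Of the genes that rose in the TMG experiment and were tested in both, 170 of 1994 (8.53%) rose there, 30.9% of the genes that rose there, and 70 fell. Of those that fell, 906 of 3623 (25%) fell there, 53.5% of the genes that fell there, and 72 rose. The difference of the 2 time effects passed for 1659 of 12577 genes (13.2%), 1209 (9.61%) more positive and 450 (3.58%) more negative in the TMG experiment, and for 2406 of 4643 introns (51.8%), 2336 of them (50.3%) more negative here. The gene count depended on single libraries. It was 7126 without 6 h library a of the OSMI-2 experiment's DMSO, 493 without 2 h library b of the TMG experiment's DMSO, and 4313 with the GC trend removed. The direction depended on processing too. The median difference over all genes was 0.29 as reported, 0.42 with median-of-ratios scaling and −0.01 with the GC trend removed. With the GC trend removed 2107 genes were more positive and 2206 more negative in the TMG experiment. GC slopes there were 0.57 to 0.88 at 2 h and 0.16 to 0.88 at 6 h, library a of 6 h standing alone at 0.16, and their part in the difference was not tested.

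Several leading genes of the TMG experiment's controls were among those that differed. CHAC1 was at 2.27 here and −0.81 there (difference 3.25 ± 0.39, edgeR adjusted p = 0.000247), and SLC7A3 at −2.67 and 0.08. TXNIP fell here (−1.43) and was higher there (0.99), a difference of −2.27 (edgeR adjusted p = 0.000704). Sterol genes were 18 higher and 1 lower of 22 here, 0 higher and 6 lower there, and 12 of the 22 passed the test of the difference, SQLE with 0.81 against −0.63 among them. Other genes had like signs in both experiments: EMILIN2 (−2.96, −2.01), HSPA1B (−1.50, −1.82), ID1 (−1.17, −1.41), VIM (−0.98, −1.20), ASNS (−1.29, −0.91), VLDLR (1.30, 1.16) and ZNF276 (1.04, 1.09). These 7 were picked for their like signs after their values were seen. The test of the difference passed for none of them, but it passed for only 13.2% of all genes, so this does not show that they changed alike. OGT rose in both, by 0.60 here and 1.81 there, and its 2 introns, at −0.30 and −0.31 on the scale of all counts here, rose by 2.65 and 2.52 on that scale there. Detained introns held 0.239% to 0.276% of counts in those 2 h controls and 0.756% to 1.21% in those 6 h controls.

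**Figure D5:**
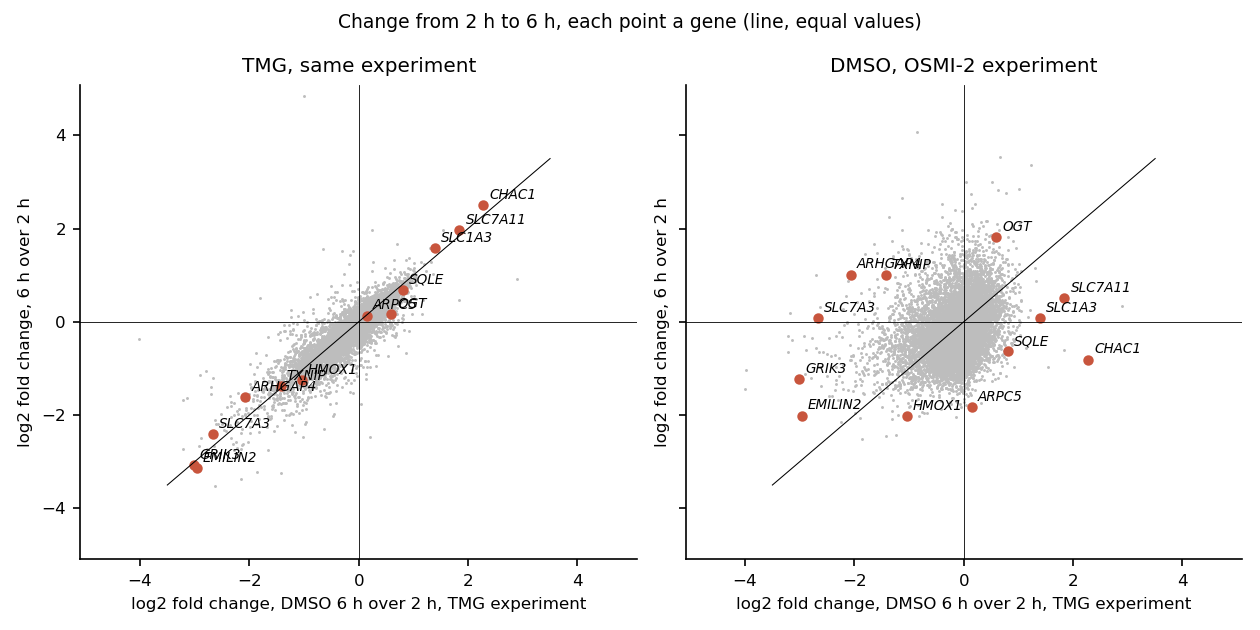
Log2 fold change of each gene, DMSO 6 h against 2 h in the TMG experiment (horizontal axis), against the same interval with TMG in that experiment (left) and in the DMSO controls of the OSMI-2 experiment (right). Points follow the diagonal on the left (r 0.87 over 12217 genes) and spread widely on the right (r 0.29 over 12119 genes).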

How the data were processed

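Per the labels, polyadenylated RNA of HEK293T cells was made into stranded Illumina libraries from RNA taken with Trizol or a column kit, without saying which sample received which. Per the submitters' processing notes, STAR and hg19 were used, and no version or role is given there. The counter and its use of strand are not given in the sources used here, so overlapping or near-identical genes are uncertain. The authors deposited whole-number counts per exon and intron bin without normalization in 4 tables of 164219 bins in 13236 gene groups. Per the file headers these are DEXSeq results. In the authors' classes 4769 bins, from 3150 genes, are detained introns, and 174 of these carry another class too. A further set of deposited files holds counts of index reads: 31.9 M to 39.2 M per sample at 2 h and 29.9 M to 34.1 M at 6 h, of which the main index took 97.0% to 98.9% at 2 h. No count column was unused. A read can count in several bins, so counts are not independent molecules.

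Bins other than detained introns were summed per gene, and each detained intron bin was kept by itself. Genes and introns were tested apart in the 6 DMSO libraries with edgeR 4.0.16 (glmQLFit, glmQLFTest, filterByExpr) in R 4.3.3, two-sided, with TMM over genes and introns together, Benjamini-Hochberg adjustment over all features and a threshold of 0.05. Standard errors of log2 fold changes are their size divided by the root of the F statistic. CPM use the TMM-scaled library size. Introns relative to their gene were tested with limma 3.58.1 (trend) on log2 of intron over gene counts with a pseudocount of 1, for mean counts of at least 10. Differences of time effects were interaction terms in 12 libraries. DESeq2 1.42.0, other scalings, filters, a fold limit, GC and length trends removed by lowess, and each library left out were alternatives. The GC and length trends together, and a block by the letter in the column names, were added after seeing the data. Columns carry letters a to c in place of the labels' replicate numbers. Deviations from the group mean over 11152 genes correlated at 0.247, 0.136 and 0.254 between DMSO libraries of one letter at 2 h and 6 h, above every pair of unlike letters. The letters were therefore taken to pair these libraries from the data, not from the labels. The same counts gave this pairing and the fit with the block, so a smaller p-value with it is no evidence of pairing. The value with the block is given where it changes a call. Scripts were tested on simulated data.

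The members, the 22 gene lists and the tests were chosen with earlier results of these data known, so no list is independent evidence of its direction. Named genes are the 10 largest rises and falls past the threshold, limited to features that average 50 counts or more, with groups that do not overlap (6 for introns, 3 for each interaction, with no demand on overlap there), up to 5 leading members of each list, and set members such as OGT. Other list members are named after their values were seen, and the values of some members are not reported here. Gene and intron positions are hg19 as the tables give them, and promoters are RefSeq GRCh38.p14, matched by symbol, of which the 50 bases after the start were not used.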

Additional observations from a re-analysis of the deposited data

Results flagged for a closer look

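The change from 2 h to 6 h in DMSO cells differed between experiments or between treatments, by an interaction test in edgeR with a Benjamini-Hochberg adjusted p under 0.05, in the following results. Between the TMG experiment and the OSMI-2 experiment 1659 genes and 2406 detained introns differed, and between DMSO and TMG within the TMG experiment 3 genes and 3 introns did.

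Of 132 genes named by rule that had a test between experiments, 45 differed (adjusted p 0.000182 to 0.0486), beside 13.2% of all genes tested. Some of the named genes were picked because they passed this same test, and others by their change in the TMG experiment. Their count is therefore no evidence by itself. Differences are log2 fold changes of the TMG experiment's controls minus those of the OSMI-2 experiment's controls. Their median over all genes was 0.29, and −0.01 with the GC trend removed, so the smaller differences depend on processing. Among stress, amino acid and growth genes the difference was 3.25 for CHAC1, 1.48 for SLC7A11, 1.47 for SLC1A3, 1.13 for DDIT4, 0.97 for STC2, 0.91 for ATF3, 0.77 for MYC and 1.0 for SESN1. It was −2.57 for SLC7A3 and −1.09 for PCK2. Sterol genes gave 1.81 for ACAT2, 1.65 for MVK, 1.60 for SQLE and 1.24 for FDFT1. Chaperone and disposal genes gave 1.5 for HERPUD1, 0.86 for HSPA5 and −0.90 for PDIA4.

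Of the 10 largest falls of the TMG experiment, 7 differed beside SLC7A3, with −2.26 for SRRM3, −1.96 for CHGB, −1.86 for ACTL6B, −1.75 for TMEM132E, −1.66 for FSTL4, −1.63 for GRIK3 and −1.55 for CALCB. Sugar and redox genes gave −2.27 for TXNIP, −1.10 for SLC2A3 (adjusted p 0.0443, and 0.0518 with the column letter as a block), −0.86 for GFPT2, −1.06 for OGT, 0.81 for HK2, 0.81 for ME1 and 1.15 for HMOX1. The other listed genes were MEF2C at 1.84, CCNB1 at 1.35, NR1D1 at 1.23, RPL28 at 1.16, GAS5 at 1.15, SNHG8 at 1.13, TRA2A at 0.86, BCL6 at 0.82 and CYR61 at −0.89. The largest differences over all genes with at least 50 counts were, beside CHAC1, 2.11 for ARPC5 and 2.03 for RPL22L1, which did not pass in the TMG experiment (ARPC5 passed there with the block, edgeR adjusted p = 0.0486) and had −1.83 and −2.04 in the other, and −2.91 for ARHGAP4, −2.90 for CYP2E1 and −2.83 for ABCC8, which fell here and were at 1.01, 1.49 and 0.88 there.

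Of 25 named introns 15 differed between experiments, beside 51.8% of all introns tested. Some of the 25 were likewise picked by this test. The difference was 2.54 for AARS_E004, 2.29 for CHAF1B_E009, 2.21 for ALKBH3_E004 and 2.07 for IMMT_E005. It was −3.92 for YTHDC2_E024, −3.02 for HUWE1_E024, −3.01 for FANCL_E010, −2.79 for OGT_E005, −2.68 for OGT_E007, −2.37 for C1S_E003, −2.14 for MGEA5_E008, −1.81 for MGEA5_E003, −1.73 for EBF4_E018, −1.68 for KMT2A_E003 and −1.11 for SH3GL3_E008. Without 2 h library a of the OSMI-2 experiment's DMSO the AARS_E004 difference was 0.79 and did not pass (adjusted p = 0.204).

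Between DMSO and TMG the difference of the time effects was −0.60 for MGEA5, 0.71 for ANKRD26, −0.44 for ZFR, −1.13 for MGEA5_E008 and 2.34 for IMMT_E005. The counts of IMMT_E005 in DMSO were 92, 118 and 20 at 2 h and 105, 92 and 217 at 6 h, so library c stood apart in both groups.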

How the results depend on the processing

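Genes past the threshold numbered 1827 (728 higher, 1099 lower) in a fit over all 23 libraries, where 1797 of the 5641 calls were made again in the same direction, 593 with the limit that the log2 fold change be at least 1 in size, and 4488 to 6806 with 1 library left out. The median of all genes was 0.03 in that fit and −0.07 as reported. TMM over genes alone gave 2913 higher and 2918 lower, library totals 2685 and 3084, the GC trend removed 2870 and 3301, and GC and length removed 2956 and 3301. Detained introns past the threshold numbered 411 by DESeq2, 316 (120 higher, 196 lower) with TMM over introns only, 319 under the same limit on size and 353 to 1480 with 1 library left out. Introns relative to the gene numbered 314 at a mean of at least 50 counts, where 1322 of the introns were tested both ways, and 243 to 952 with 1 library left out. The difference in the share of introns ran from 0.0839 to 0.188 percentage points.

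Genes differing between experiments numbered 4313 (2107 higher, 2206 lower) with the GC trend removed and 2434 (2117 higher, 317 lower) with median-of-ratios scaling. With 1 library left out they numbered 493 to 7126, and introns stayed within 1630 to 2732. Between DMSO and TMG, leaving out 1 library gave 1 to 69 genes and 0 to 7 introns. For CCNB1 (−0.03 as reported) the sign turned to 0.049 with TMM over genes alone, 0.035 with library totals, 0.087 in the fit over all libraries, and ran from −0.081 to 0.079 with 1 library left out; for CCNE2 to −0.029 and −0.024 with GC, or GC and length, removed; and for CLK1 (−0.09 as reported) to 0.026 in the fit over all libraries. None of these 3 genes passed as reported, and CLK1 passed with GC removed (−0.19, edgeR adjusted p = 0.0143) and with GC and length removed (−0.15, edgeR adjusted p = 0.0439). The cause of these changes was not tested. Named genes whose call was lost in at least 1 leave-out included FOS, PER2, CTGF, LATS2, SLC2A3, ANKRD37, RORA, CCNE1, SLBP, SNHG8, SNHG6, SNHG1, NQO1 and HIST1H2BD. So were the calls of NR4A2, HSPA4L, CHORDC1, HSPD1, HES1, EDEM1 and SREBF2, list members named after their values were seen. With the column letter as a replicate block, added after seeing the data, 6563 genes, 1216 introns and 904 introns relative to the gene passed, and 5632 of the 5641 genes called were called again in the same direction. Between DMSO and TMG 17 genes and 7 introns passed with this block, OGT among them (edgeR adjusted p = 0.0123), and between experiments 2247 genes and 2485 introns; but libraries of one letter did not deviate together in the TMG cells (r −0.00444 to 0.131) or the OSMI-2 experiment's DMSO (−0.626 to 0.26), so the letters pair none of those. The median count of introns tested, near 33 per library, limits their precision.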

Other observations

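Gene families outside the lists were grouped by symbol after values had been seen, so their counts are descriptions. They stand beside 16.3% higher and 29.6% lower over all genes tested. Of 31 amino acid carriers tested (SLC1, SLC6, SLC7, SLC36, SLC38 and SLC43), 13 were higher, 7 lower and 11 did not pass, with a median of 0.11 on the log2 scale. Beside SLC7A11, SLC1A3 and SLC7A1 the taurine carrier SLC6A6 (1.0), the glutamine carrier SLC38A2 (0.85), SLC1A1 (0.71) and SLC7A2 (0.48) rose, and SLC1A4 (−0.83), SLC38A3 (−0.56), SLC43A1 (−0.44) and SLC43A2 (−0.44) fell beside SLC7A3. The aminoacyl-tRNA synthetases, which load amino acids on tRNA, were 6 higher and 5 lower of 20, from TARS (0.46), AARS (0.43) and MARS (0.32) to SARS (−0.35) and WARS (−0.67).

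Of 5 granin-type genes 4 fell, CHGB (−2.47), CHGA (−2.14), SCG3 (−1.63) and PCSK1N (−1.01), and SCG5 rose by 0.69. Of 5 glutamate receptor subunits 4 fell, with GRIK5 at −1.01, GRIN2D at −0.82 and GRID1 at −0.42 beside GRIK3. Of 30 potassium channel subunits 18 fell and 0 rose, with a median of −0.57 and with KCNH3 (−1.64), KCNIP3 (−1.57) and KCNMA1 (−1.55) as the largest. Median transcript GC was 60.8% for the glutamate receptor subunits, 57.2% for the channel subunits and 52.3% for the granin-type genes. Over all genes tested it was 48.4%, and the part of GC in these falls was not tested. Of 359 zinc finger genes named ZNF, whose median GC was 43.5%, 75 rose, 49 fell and 235 did not pass. The shares over all genes were 16.3% higher and 29.6% lower.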
